A study of Mus musculus with 6 samples.

Results

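The genes described here encode 10 proteins of the cardiac sarcomere: Tnni1, Tnnt2, Tnnc1, Actc1, Myl3, Myl4, Myl7, Myh6, Myh7 and Ttn. They were taken by name, and every probe set annotated to 1 of them alone was read, which gave 21 of the 45101 probe sets on the array and 10 of the 18194 genes that a single symbol names there. Another 2 probe sets are annotated to Myh6 and Myh7 together and were left out. Expression was measured in mouse embryoid bodies, the cell aggregates in which embryonic stem cells differentiate, on 6 Affymetrix Mouse Genome 430 2.0 arrays. All arrays carried RNA from the same embryonic stem cell line, Hoxb4i, in which a doxycycline-inducible cassette drives HOXB4, so the uninduced embryoid bodies carry the cassette too. They were started at 3500 cells/ml, and RNA was taken on day 6. The induced group (n = 3) received doxycycline at 2 µg/ml from day 4, for 48 h, and the uninduced group (n = 3) received none. The 3 biological replicates that the design text names are experiments A, B and C, each with 1 uninduced and 1 induced array, and the labels say nothing of what else differed between them. The Hoxb4i cells are a single line, and no doxycycline-treated cells without the cassette were analysed here.

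The sarcomere is the contractile unit of striated muscle. Myosin heavy chains, each carrying essential and regulatory light chains, pull on actin filaments, and the troponin complex on those filaments opens myosin binding when its C subunit takes up calcium. Titin spans from the Z-disc to the M-band and aligns the thick filament. The embryonic heart and the heart-like muscle of embryoid bodies use early isoforms of several of these proteins, among them Tnni1, Myl4 and Myl7, whose counterparts Tnni3, Myl3 and Myl2 dominate in the mature ventricle. Tnni1, Tnnc1, Myl3 and Myh7 are also genes of slow skeletal muscle, so their signal alone does not name a cardiac cell. In RNA from whole embryoid bodies, fewer cells of a type and less RNA per cell cannot be told apart.

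To show the regulatory sequence of the members described first, the 250 bases before the annotated start are printed for 4 genes. Tnni1 and Tnnt2 had the lowest and the third lowest C against B values among the members, and Actc1 and Myl7 share a CArG box, the serum response factor motif of muscle promoters. The sequences are those of RefSeq on GRCm38.p6, 5′ to 3′ on the strand of the gene, and all 10 members matched, with 13 windows because some have several starts. Capitals mark matches to any of 5 motifs searched on both strands: the CArG box, the MEF2 site, the TEAD factor motif CATTCC, the zinc finger factor motif AGATAA, known from heart and blood genes, and the core promoter letters TATAAA.
Tnni1, chr1:135799171-135799420, plus strand: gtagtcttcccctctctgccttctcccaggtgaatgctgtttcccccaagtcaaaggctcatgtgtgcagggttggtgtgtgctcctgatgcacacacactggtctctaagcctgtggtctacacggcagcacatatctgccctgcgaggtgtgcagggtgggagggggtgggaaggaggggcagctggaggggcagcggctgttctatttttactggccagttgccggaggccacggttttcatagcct
Tnnt2, chr1:135836084-135836333, plus strand: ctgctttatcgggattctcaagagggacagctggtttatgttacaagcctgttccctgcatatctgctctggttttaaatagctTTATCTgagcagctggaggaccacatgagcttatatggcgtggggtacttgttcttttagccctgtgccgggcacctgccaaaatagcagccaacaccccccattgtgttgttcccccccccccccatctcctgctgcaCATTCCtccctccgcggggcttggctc
Actc1, chr2:114052876-114053125, minus strand: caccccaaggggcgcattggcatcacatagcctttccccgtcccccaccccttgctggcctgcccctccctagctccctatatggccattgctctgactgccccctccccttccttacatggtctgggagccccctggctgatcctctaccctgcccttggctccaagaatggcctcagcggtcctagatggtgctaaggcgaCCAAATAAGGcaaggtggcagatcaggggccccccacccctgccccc
Myl7, chr11:5898783-5899032, minus strand: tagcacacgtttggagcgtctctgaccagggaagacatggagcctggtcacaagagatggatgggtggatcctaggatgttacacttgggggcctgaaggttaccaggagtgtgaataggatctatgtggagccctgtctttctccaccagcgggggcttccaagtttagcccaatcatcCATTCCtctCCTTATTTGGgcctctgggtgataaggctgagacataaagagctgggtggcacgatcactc
No search letters occurred in the Tnni1 window. In the Tnnt2 window CATTCC lay 27 to 22 bases before the start, and AGATAA lay on the other strand 166 to 161 bases before it. The CArG box lay 47 to 38 bases before the start in Actc1 and 61 to 52 bases before it in Myl7, where CATTCC stood at 70 to 65 bases. A CArG box reads on both strands at the same bases, and no matches to different motifs overlapped in these windows. Among all members, the CArG box was in windows of 3 genes (Actc1, Myl3 and Myl7), against 1.47% of the 32851 windows of all genes. CATTCC was in windows of 6 genes (12.6% of all windows), AGATAA in 1 (9.99%), a MEF2 site in 1, Ttn (2.92%), and TATAAA in 0 of the 13 windows (12.4%). These matches describe the letters only.

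The values are MAS5 signals, a microarray brightness on a linear scale that was set to a common mean on every array, and differences were taken as log2(signal + 18.8). The offset, 18.8, equals the 20th percentile of the whole table, and it makes fold values of dim probe sets smaller than the plain ratio of their signals. The median signal of an array lay between 92 and 108.6. Of the 21 member probe sets 13 had a mean over the 6 arrays above the dimmest 40% and were tested with limma, and 8 were not. Each gene is described first by its probe set with the highest mean signal. The induced gene itself, Hoxb4, differed little in B: probe set 1451761_at read 46.5 uninduced and 116.4 induced for A, 119.8 and 129.5 for B, and 113.5 and 175.5 for C. The other, 1460379_at, read 78.2 and 136.3 for A, 253 and 261.4 for B, and 27.6 and 150.7 for C. Neither passed the test of induction (adjusted p = 1 for both), and the sources used here do not say whether they read the cassette's transcript. The uninduced array of A stood apart in RNA quality: its 3′ to 5′ signal ratio for Actb was 2.88, against 1.26 to 1.48 on the other 5 arrays, and for Gapdh 1.08 against 0.834 to 0.903. Its part in the results below was not tested, and values without it are given where they change a call.

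**Figure D1:**
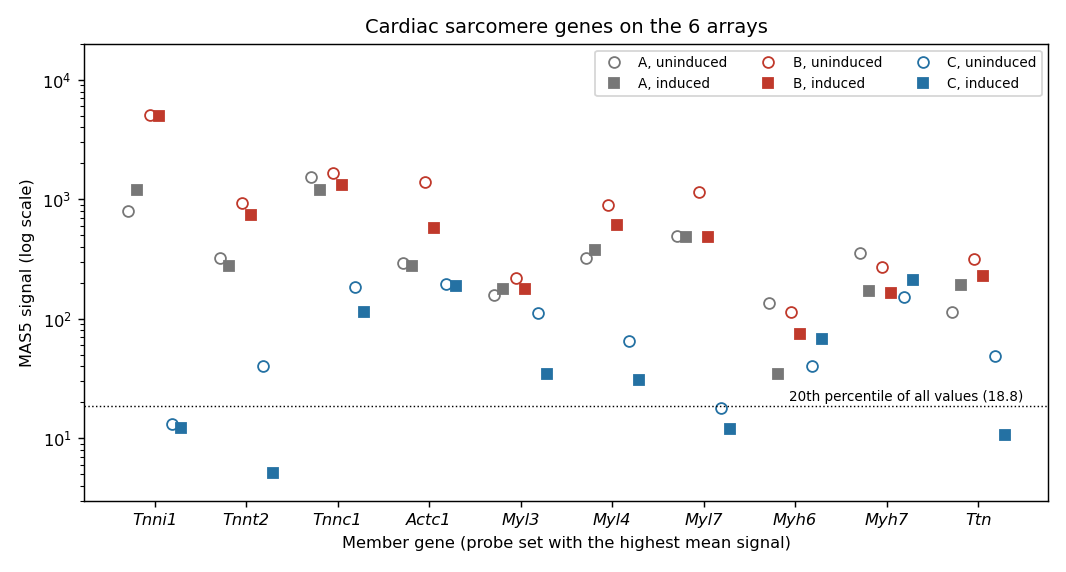
MAS5 signal of the 10 member genes (vertical axis, log scale, unit MAS5 signal) on the 6 arrays, with open circles for uninduced and filled squares for induced embryoid bodies and grey, red and blue for experiments A, B and C; the dotted line is the 20th percentile of all values, 18.8. For 8 of the 10 genes both arrays of C sit below all arrays of A and B, while Myh6 and Myh7 overlap.

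Most members differed between experiments. Troponin subunits, cardiac actin, the early light chains and titin were lower in C than in B, in several cases with C signals under the 20th percentile of all values. Myosin heavy chain probe sets did not pass the test. Both C arrays lay below all 4 arrays of A and B for 8 of the 10 genes, an order found for 15.2% of all probe sets tested. The signal summed over 1 probe set of each of the 10 genes was 4559 and 4389 on the uninduced and induced arrays of A, 12110 and 9349 on those of B, and 871 and 685 on those of C.

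Of the 21 member probe sets, 10 were lower in C than in B without any filter on dim probe sets, at an adjusted p under 0.05, against 2.67% of all 45037 probe sets. With the filter, 10 of the 13 tested were lower in C, where 5.14% of the 27022 tested probe sets were, and 0 were higher, where 4.20% were. Against A, 8 of the 13 were lower in C (background 4.15%), and without the filter 6 of the 21 (background 1.63%). Between B and A, 3 of the 13 were higher in B (background 2.01%), and without the filter 1 of the 21 (background 0.850%). Over all 21 member probe sets the median log2 difference of C from B was -1.61, against 0.09 over all probe sets. The tests use the spread between arrays left after experiment and induction, with 2 arrays in each experiment. Leaving out the uninduced array of B lowered the C against B count to 6 of 12 member probe sets, and the count over all probe sets then fell from 2525 to 1009 in both directions together. Without the uninduced array of A that total rose to 8088.

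Troponin came first among these differences. Tnni1, the slow skeletal troponin I that the embryonic heart also uses, read 805 uninduced and 1208 induced for A, 5126 and 4969 for B, and 13.3 and 12.2 for C. Its 3 experiments did not overlap: B was high, A intermediate, and both C arrays lay below the 20th percentile of all values. The C against B difference was -7.33 (95% interval -7.93 to -6.73, adjusted p = 2e-05), the lowest of all 27022 probe sets tested. Because both C signals were below 18.8, its size depended on the offset, at -8.52 with an offset of 1 and -6.06 with an offset of 64. The C against A difference of -4.99 (adjusted p = 0.000377) was also the lowest, and B exceeded A by 2.33 (interval 1.73 to 2.93, adjusted p = 0.00722). The call between B and A was lost (2.18, adjusted p = 0.0873) once the uninduced array of B was left out, and also without the intensity trend of the fit (adjusted p = 0.0539).

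Tnnt2, cardiac troponin T, which anchors the complex to tropomyosin, read 320 and 274 for A, 930 and 744 for B, and 40.3 and 5.1 for C on probe set 1418726_a_at. Both C arrays were below every array of A and B. C was lower than B (-4.50, interval -5.34 to -3.67, adjusted p = 0.000332) and lower than A (-3.07, adjusted p = 0.00631). The B against A difference of 1.43 missed the threshold (adjusted p = 0.0703). It passed with an offset of 64 (1.31, adjusted p = 0.0274), when the induced A array was left out (1.73, adjusted p = 0.000358), and when either C array was left out (1.43, adjusted p = 0.0456 for the uninduced and 0.0415 for the induced). A second probe set of Tnnt2, 1424967_x_at, gave 232 and 176 for A, 759 and 573 for B, and 10.6 and 4.1 for C, and for it B also exceeded A (1.62, adjusted p = 0.039). That call was lost with an offset of 1 (adjusted p = 0.0929), without the filter (0.0821), without the intensity trend (0.0598) and when either B array was left out (0.393 for the uninduced and 0.174 for the induced). The third, 1440424_at, was too dim to be tested and had its highest value, 111.5, on the induced array of C, with 29.3 to 57.8 on the other 5.

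Tnnc1 encodes the calcium-binding troponin C of cardiac and slow muscle. It read 1553 and 1199 for A, 1679 and 1320 for B, and 183 and 113 for C. Here A and B overlapped and C lay apart. The difference from B was -3.21 (interval -3.72 to -2.70, adjusted p = 0.000189) and from A -3.08 (adjusted p = 0.00106), while B and A differed by 0.12 (interval -0.39 to 0.63, adjusted p = 0.769). The 3 troponin genes therefore shared a low level in C but not the order of A and B.

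Actc1, cardiac alpha actin, the first sarcomeric actin of the heart, read 296 and 277 for A, 1397 and 576 for B, and 198 and 188 for C. B was high, and A and C were closer together, although both C arrays lay below both A arrays. C was lower than B (-2.12, interval -2.91 to -1.32, adjusted p = 0.00796), and B higher than A (1.59, adjusted p = 0.0476), whereas C and A did not differ past the threshold (-0.53, interval -1.32 to 0.27, adjusted p = 0.357). The first call was lost when the uninduced B array (-1.53, adjusted p = 0.11) or the uninduced C array (-1.81, adjusted p = 0.0614) was left out. The second was lost (1.00, adjusted p = 0.602) once that array of B was left out, and with offset 1, no filter, a stricter filter or no intensity trend (adjusted p = 0.0544 to 0.127). Without the uninduced array of A, C was lower than A (-0.81, adjusted p = 0.0449).

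Among the light chains, the atrial and early isoforms Myl7 and Myl4 showed larger differences than Myl3. Myl3 was dimmer in B, which limits how far it could fall, so this order is not read as early against mature. Myl7, the atrial regulatory light chain, read 494 and 480 for A, 1154 and 486 for B, and 17.9 and 11.9 for C, so that the induced array of B stood at the level of A and both C arrays below 18.8. The C against B difference was -4.52 (interval -5.35 to -3.69, adjusted p = 0.000328) and the C against A difference -3.91 (adjusted p = 0.00235). B against A gave 0.61 (interval -0.23 to 1.44, adjusted p = 0.344).

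Myl4, the essential light chain of atrium and embryonic muscle, read 326 and 375 for A, 898 and 610 for B, and 65.4 and 30.9 for C, with no overlap between experiments. C was lower than B (-3.55, interval -4.31 to -2.80, adjusted p = 0.000591) and than A (-2.51, adjusted p = 0.00883). B against A, at 1.04, did not pass (interval 0.29 to 1.80, adjusted p = 0.114) and passed only without the induced array of A (1.47, adjusted p = 0.000841) among the alternatives and left-out arrays run. Its second probe set, 1457126_at, was untested and read 15.7 to 87.3, with the highest value on the induced array of C.

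Myl3, the ventricular and slow-muscle essential light chain, read 160 and 177 for A, 219 and 176 for B, and 112 and 34.3 for C on 1428266_at. Both C arrays were again the lowest, but the difference from B did not pass (-1.37, interval -2.34 to -0.40, adjusted p = 0.089), nor did that from A (-1.17, adjusted p = 0.124). It passed without either array of A (-1.37, adjusted p = 0.00215 without the uninduced and 0.00277 without the induced). The C against A difference passed once the uninduced A array was left out (-1.63, adjusted p = 0.0133). Probe set 1427768_s_at of the same gene read 161 and 83.3 for A, 220 and 103 for B, and 28.2 and 10.6 for C, and it was lower in C than in B (-2.20, adjusted p = 0.0118) and than in A (-1.87, adjusted p = 0.0352). The first of these calls was lost when either B array (adjusted p = 0.105 for the uninduced and 0.0602 for the induced) or the uninduced C array (0.0604) was left out. The second was lost without the filter (adjusted p = 0.0714), without the induction term (0.0504), and when the uninduced A array (0.0508) or either C array (0.183 for the uninduced and 0.1 for the induced) was left out. The untested 1427769_x_at was also lowest in C, but it read higher for A (151.1 and 41.6) than for B (112.3 and 31.1), with 10.4 and 5.2 for C. The 2 tested probe sets of Myl3 thus differed in whether they passed.

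The myosin heavy chains, the motor proteins, passed the test in none of the 3 comparisons between experiments. Myh6, the alpha heavy chain of atrium and adult mouse ventricle, read 136 and 34.6 for A, 114 and 75.0 for B, and 40 and 67.7 for C, and the 3 experiments overlapped. Its C against B difference was -0.65 (interval -1.90 to 0.61, adjusted p = 0.531). The second Myh6 probe set, 1417729_at, stayed between 0.9 and 6.0 on the 6 arrays, far below the 20th percentile of all values. Myh7, the beta heavy chain of fetal ventricle and slow muscle, read 353 and 173 for A, 272 and 164 for B, and 152 and 211 for C, also with overlap, and its C against B difference was -0.22 (interval -1.11 to 0.67, adjusted p = 0.785). The lower ends of these intervals, -1.90 and -1.11, lie above the upper ends for Tnni1, Tnnt2, Tnnc1, Myl4 and Myl7, which run from -6.73 to -2.70. The intervals of Actc1, Myl3 and Ttn overlap that of Myh6. Myh6 was dim in B, at 114 and 75.0. With the offset used here, even no signal in C would leave its difference above the upper ends for Tnni1, Tnnt2, Tnnc1, Myl4 and Myl7. Its interval therefore cannot show whether Myh6 fell less than those genes. Myh7 was brighter in B, at 272 and 164, and had more room to fall. Even so, no signal in C would leave its difference above the upper ends for Tnni1, Tnnt2 and Myl7. Its interval can therefore be set only against those of Tnnc1 and Myl4. The difference between the heavy chains and the other members was not tested itself.

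Ttn, the giant spring protein, has 6 probe sets, of which 2 were tested. On 1427445_a_at it read 115 and 192 for A, 316 and 230 for B, and 49.2 and 10.6 for C, with no overlap between experiments. C was lower than B (-2.69, interval -3.80 to -1.58, adjusted p = 0.0118), a call lost when the uninduced B array (-2.62, adjusted p = 0.0611) or the induced C array (-2.03, adjusted p = 0.0736) was left out. The difference from A, -1.91, missed the threshold (adjusted p = 0.0546) and passed without the uninduced array of A (-2.65, adjusted p = 5.1e-05), without the induction term (adjusted p = 0.04) and once the induced B array was left out (adjusted p = 0.0474). B against A gave 0.78 (adjusted p = 0.358) and passed once the induced A array was left out (1.52, adjusted p = 0.027). On 1427446_s_at, which read 97.2 and 83.6 for A, 258 and 120 for B, and 6.9 and 3.1 for C, both differences passed (-3.05, adjusted p = 0.00498 against B, and -2.20, adjusted p = 0.032 against A). The call against A was lost without the filter (adjusted p = 0.0585), without the intensity trend (0.0548) and when either C array was left out (0.149 for the uninduced and 0.0784 for the induced). The 4 untested Ttn probe sets lay between 6.8 and 99.9, and none of them passed when all probe sets were tested without a filter.

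**Figure D2:**
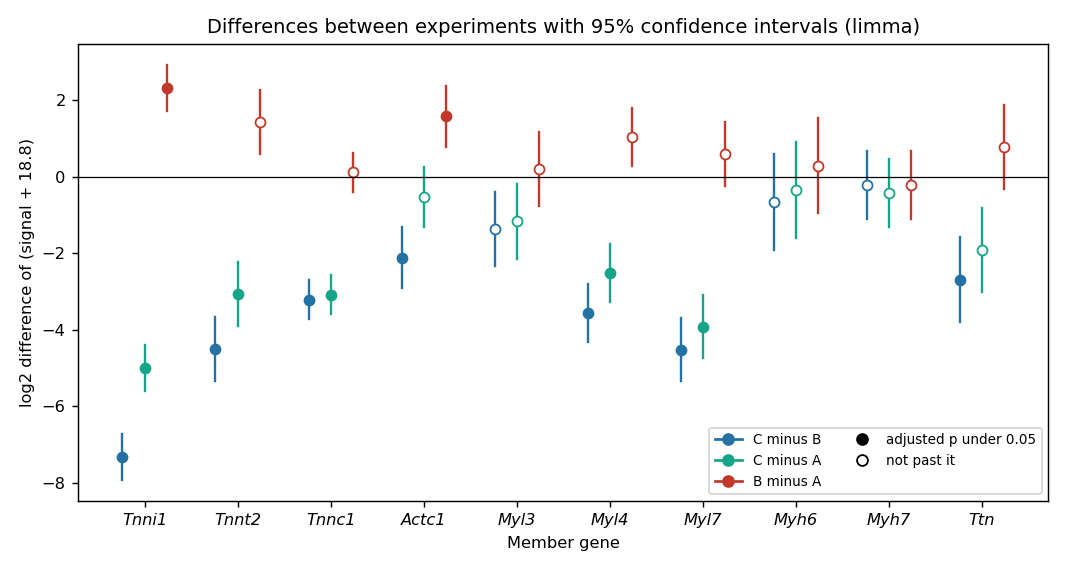
Differences in log2(signal + 18.8) between experiments (vertical axis) for the 10 member genes, with limma's 95% confidence intervals as bars, C minus B in blue, C minus A in green and B minus A in red; filled points have an adjusted p under 0.05. Tnni1 lies lowest at -7.33 for C minus B, and the intervals of Myh6 and Myh7 span 0 in all 3 comparisons.

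Induction changed no member past the threshold. The mean log2 difference over the 10 genes was -0.39, and 12 of the 13 tested probe sets were lower with doxycycline, as were 15 of all 21 (71.4%) and 48.6% of all probe sets tested, but 0 of the 13 passed limma's test, as did 0 of the 27022 in either direction (background 0% for either sign). An unadjusted p under 0.05 was reached by 146 probe sets in all and by 0 members. With the experiment as a replicate block, 0 again passed (smallest adjusted p = 0.931), with 1071 of all tested probe sets and 2 of the 13 members at an unadjusted p under 0.05. Those 2 were Tnnc1, at -0.44 with a blocked interval of -0.86 to -0.03, and Myl3 on 1427768_s_at, at -0.82 with an interval of -1.56 to -0.08 (adjusted p = 0.931 for both). The median over the 10 genes was -0.46, against 0.02 over all 12443 genes tested. Without the block, the 95% interval reached a median of 2.27 to either side for the 13 member probe sets, against 0.80 for all tested. Such intervals take in the differences between experiments. That of Tnni1 ran from -4.96 to 5.28 without the block and from -0.33 to 0.65 with it.

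By group, Tnnc1 had a mean signal of 1139 ± 830 (SD, n = 3) uninduced and 877 ± 664 (SD, n = 3) induced, so the spread between experiments exceeded the difference. Actc1 stood at 630 ± 666 uninduced and 347 ± 203 induced, Myl7 at 555 ± 570 and 326 ± 272, and Tnni1 at 1982 ± 2752 and 2063 ± 2587 (all SD, n = 3). The 2 groups overlapped for each of these 4 genes. Myh7 stood at 259 ± 101 uninduced and 183 ± 24.9 induced, again with overlap.

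Within each experiment, where 1 array stands against 1 and no test is possible, the direction depended on the experiment. All 10 genes were lower with doxycycline in B, where 48.9% of all tested probe sets were lower. In A 6 of the 10 were lower (53.5% of all) and in C 8 (48.0% of all). Tnnt2, Tnnc1, Actc1 and Myl7, 4 of the 10 genes, were lower in all 3 experiments, as were 13.2% of all tested probe sets.

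The largest changes in B were those of Actc1 (-1.25) and Myl7 (-1.22), which in A changed by -0.09 and -0.04 and in C by -0.07 and -0.26. Tnnc1 was the most even, at -0.37, -0.34 and -0.62 in A, B and C. Tnni1 changed by 0.57 in A and by -0.05 in both B and C, none of it past the test. Tnnt2 changed by -0.21, -0.32 and -1.31, where the last value compares 40.3 with 5.1, both dim. Myh6 and Myh7 had the same sign within each experiment, with changes of -1.53 and -0.96 within A, -0.50 and -0.67 within B, and 0.56 and 0.43 within C. The values in A rest on the uninduced array whose Actb ratio stood apart. Myl4 and Ttn were higher with doxycycline in A (0.19 and 0.65) and lower in B (-0.55 and -0.43) and C (-0.76 and -1.21), and Myl3 likewise gave 0.13, -0.28 and -1.30.

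**Figure D3:**
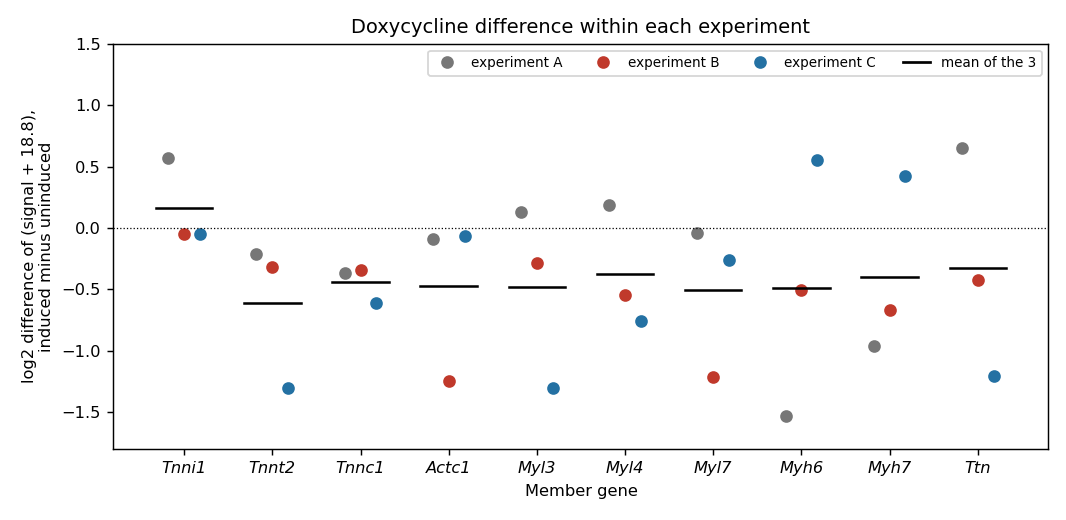
Difference in log2(signal + 18.8), induced minus uninduced, of the 10 member genes within experiment A (grey), B (red) and C (blue), with a black bar at the mean of the 3. All 10 red points lie below 0, and the black bar of Tnni1 is the only one of the 10 above 0.

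To follow isoforms, in most pairs early against mature, the log2 ratio of 2 partner genes was compared between arrays. Acta1 over Actc1 sets skeletal against cardiac actin and is not read as mature against early. Levels of different probe sets cannot be set against each other, so only the change of a ratio between arrays is given. Tnni3, adult cardiac troponin I, read 164 and 95.3 for A, 25.8 and 58.5 for B, and 29.0 and 93.2 for C, and C against B gave 0.32 (adjusted p = 0.777). Acta1, skeletal alpha actin, read 373 and 168 for A, 170 and 105 for B, and 212 and 233 for C (0.66, adjusted p = 0.323). Myl2, the ventricular regulatory light chain, was too dim to be tested and read 41.0 and 48.8 for A, 51.7 and 47.6 for B, and 8.6 and 20.9 for C. Of the 14 partner isoforms of all kinds, 8 were tested, and 0 of them passed in C against B.

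From B to C, the log2 ratio of Tnni3 over Tnni1 moved by 7.65, that of Myl2 over Myl7 by 3.47, that of Acta1 over Actc1 by 2.77 and that of Myl3 over Myl4 by 2.19. In size these shifts restate in large part the lower signals of Tnni1, Myl7, Actc1 and Myl4 in C, and they were not tested themselves. The partners' own differences were 0.32 for Tnni3, -1.05 for Myl2, 0.66 for Acta1 and -1.37 for Myl3. Myl2 was not tested, and another probe set of Myl3 was lower in C (-2.20, adjusted p = 0.0118). Tnni3 and Myl2 were dim in B, so their values cannot show that they held steady. The shift of Tnni3 over Tnni1 was 7.42 on the uninduced and 7.87 on the induced arrays. As Tnni1 and Myl7 lay below 18.8 in C, the first 2 sizes depend on the offset: Tnni3 over Tnni1 moved by 8.93 with an offset of 1 and by 6.26 with an offset of 64, and Myl2 over Myl7 by 3.78 and 2.84. The ratio of Myh6 over Myh7 moved by -0.43. With doxycycline the ratio of Myl2 over Myl7 was higher in each of the 3 experiments (0.22, 1.13 and 0.79, mean 0.71, exact permutation p = 0.25), which is the smallest p that 3 pairs allow. The mean changes of the other 4 ratios lay between -0.11 and 0.29 (exact permutation p = 0.75 to 1), with mixed signs across experiments.

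**Figure D4:**
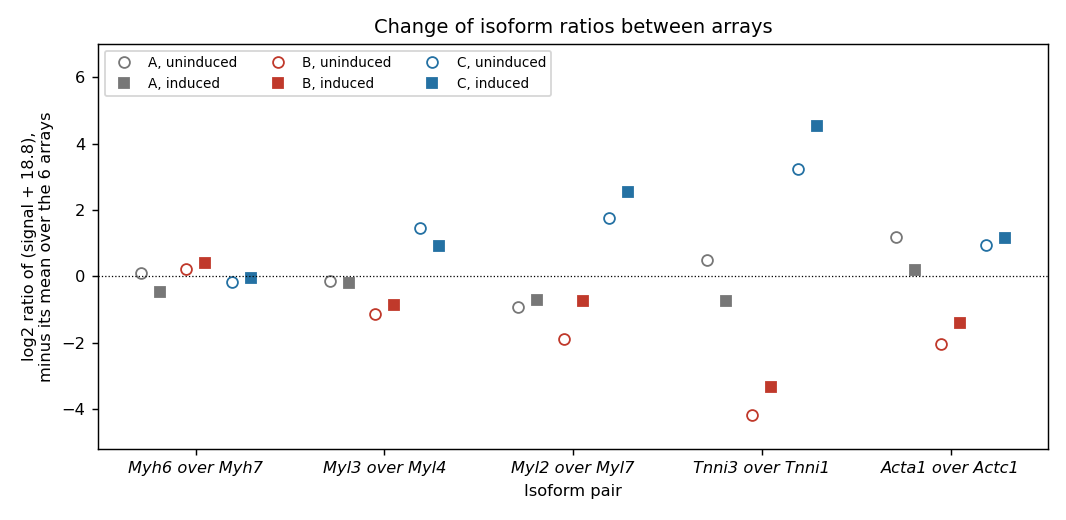
Log2 ratio of 2 isoforms, each from its log2(signal + 18.8) and centred on its mean over the 6 arrays (vertical axis), for 5 pairs, with open circles for uninduced and filled squares for induced arrays and grey, red and blue for A, B and C. Tnni3 over Tnni1 spans the widest range, with both red symbols lowest and both blue symbols highest, and Myh6 over Myh7 stays nearest to 0.

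Other genes of the contractile apparatus moved in part with the members. Of 32 further sarcomere and Z-disc genes 20 were tested, and 10 were lower and 1 higher in C than in B. Over all 12443 genes tested, 852 were lower and 705 higher. Cryab, a small heat shock protein that binds titin and desmin, read 901 and 302 for A, 1212 and 1083 for B, and 103 and 92.0 for C (-3.32, adjusted p = 0.00142). Unc45b, a myosin chaperone, was lower as well (-3.21, adjusted p = 0.00264). Fhod3, a formin of the cardiac sarcomere, went the other way (1.88, adjusted p = 0.0034), with 170 and 250 in B and 773 and 857 in C, a call lost when the uninduced B array was left out (adjusted p = 0.0553). The list median was -0.84, against 0.07 over all genes tested and -2.95 over the 10 members.

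Of 24 genes of calcium handling, ion channels and natriuretic peptides 12 were tested, and 1 was lower in C than in B: Jph2, which ties the sarcoplasmic reticulum to the plasma membrane (-2.32, adjusted p = 0.0129). That call was lost when the induced array of B (adjusted p = 0.149) or of C (0.0921) was left out. Hrc, a calcium-binding protein of that reticulum, gave -1.01 (adjusted p = 0.131), and Kcnh2, a potassium channel, 0.01 (adjusted p = 0.989). Cardiac transcription factors mostly showed the same direction as the members: 14 of 19 tested were lower in C than in B and 0 higher. Of all 12443 genes tested, 852 were lower and 705 higher. Among the 14, Hand2 read 710 and 2008 for A, 4865 and 6028 for B, and 73.0 and 171 for C (-5.37, adjusted p = 7.8e-05). Tbx20 differed by -4.59 (adjusted p = 0.000118) and Gata6 by -3.46 (adjusted p = 0.000189). Nkx2-5 did not pass (-0.76, adjusted p = 0.498) and read 138.5 on the uninduced array of C, its highest value. In all, 16 of the 19 lay below 0, and Mesp1 was among those above it (0.695, adjusted p = 0.289). Tbx5 was too dim to be tested.

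Markers of other cell types differed between the same experiments, and their part in the members' differences was not tested. Of all 12443 genes tested, 852 were lower and 705 higher in C than in B. Between B and A, 330 were higher and 294 lower in B. Endothelial markers were lower in C than in B for 9 of 10 tested, with signals, summed over 1 probe set of each gene named on the array, of 1383 and 2868 for A, 8497 and 9415 for B, and 1383 and 935 for C, and with Tek at -3.97 (adjusted p = 0.000428). Erythroid markers were lower for 2 of 6, with sums of 522 to 3102 in A, 26460 to 36990 in B and 1706 to 1791 in C. Endoderm markers were lower for 6 of 10, with sums of 8395 to 9851 in A, 15960 to 17070 in B and 1062 to 1212 in C. Ttr, the transthyretin that visceral endoderm secretes, stood at -6.28 (adjusted p = 2e-05) and alone read 11110 and 10701 of the sums in B. Between B and A, 3 of the 10 were higher in B, Ttr among them (1.43, adjusted p = 0.0175). Another 3 were lower in B, among them Foxa2 (-1.74, adjusted p = 0.0142) and Afp (-2.60, adjusted p = 0.0116). Neural markers were higher in C for 8 of 9, with sums of 3736 to 4658 in A, 678 to 950 in B and 8435 to 8597 in C, and Sox1 was higher (4.59, adjusted p = 0.000376). Pluripotency markers were higher for 4 of 10, with sums of 4912 to 6545 in A, 1936 to 2243 in B and 10160 to 10240 in C. Sox2 was among them (3.97, adjusted p = 7.5e-05), and it alone read 6163 and 6065 of the sums in C. Pou5f1 did not pass (0.72, adjusted p = 0.23), and 2 of the 10 were lower in C than in B. The calls of Nanog and Dppa5a were lost when the induced B array or either C array was left out. No marker was listed at 0 on any array.

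Muscle of other kinds was checked with its own markers, whose counts stand against the same 852 lower and 705 higher of all 12443 genes tested. Of 18 skeletal muscle markers 7 were tested, and 0 were lower and 3 higher in C than in B: Pax3 (4.96, adjusted p = 0.00018), Pax7 (4.58, adjusted p = 0.000594) and Actn3 (1.77, adjusted p = 0.0201). The Actn3 call was lost when any 1 of the 4 arrays of B and C was left out (adjusted p = 0.0553 to 0.206). Pax3 and Pax7 are also genes of the neural tube. The signal summed over 1 probe set of each of the 18 genes was 1130 to 1565 in A, 713 to 814 in B and 3054 to 3166 in C. Most of the gap between C and B came from Pax3 and Pax7, and over the other 16 genes the sums were 660.6 and 552.8 for A, 728.1 and 701.6 for B, and 958.4 and 999.8 for C. Among the fast skeletal troponins, Tnni2 and Tnnt3 did not share the higher level of C over B. Tnnc2, fast skeletal troponin C, had that direction (0.205, adjusted p = 0.87 when all probe sets were tested). It was too dim for the filter, with 47.4 as its highest signal, on the uninduced array of A. Tnni2, fast skeletal troponin I, was too dim for the filter and read 13.7 and 7.0 for A, 101.4 and 90.2 for B, and 11 and 9.1 for C (-1.99, adjusted p = 0.0416 when all probe sets were tested). Tnnt3, fast skeletal troponin T, read 51.0 and 62.4 for A, 95.9 and 121.8 for B, and 47.1 and 77.7 for C (-0.67, adjusted p = 0.363). The determination factors were too dim to be tested: Myod1 read 27.4 and 46.2 for A, 14.7 and 16.5 for B, and 135 and 152 for C, and Myog 10.5 to 58.9 over the 6 arrays. Of 10 smooth muscle markers 6 were tested, with Acta2 lower in C than in B (-2.79, adjusted p = 0.000345) and Mylk higher (3.28, adjusted p = 0.000358). Their sums were 3517 to 6441 in A, 17850 to 19460 in B and 4835 to 5879 in C.

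**Figure D5:**
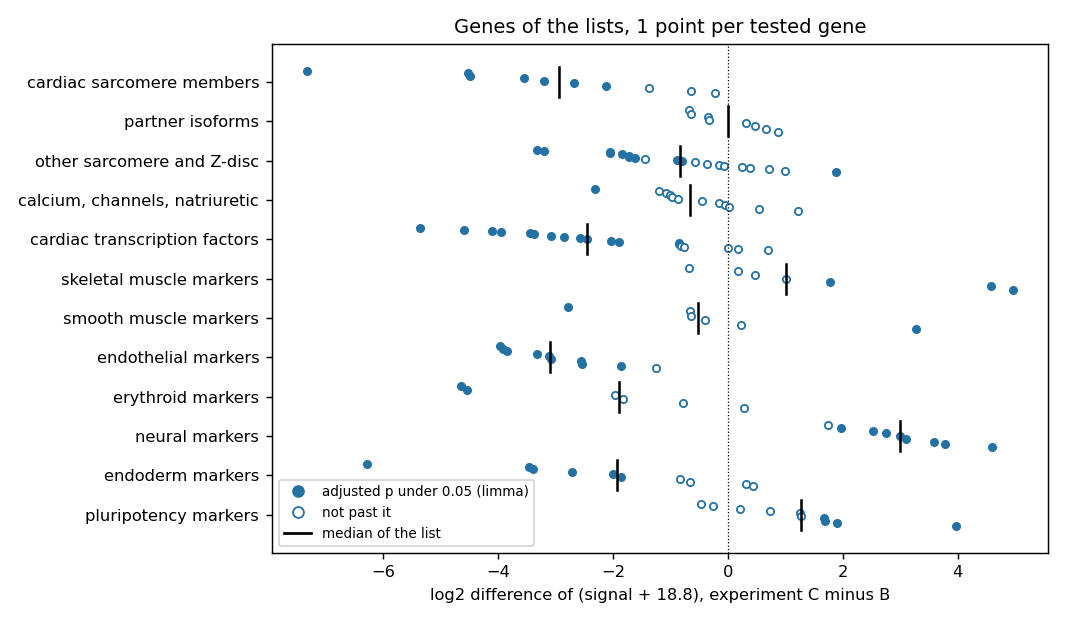
Difference in log2(signal + 18.8), experiment C minus B (horizontal axis), for the tested genes of the 10 members and 11 other lists, 1 point per gene, filled where the adjusted p is under 0.05, with a bar at each list's median. The members' median lies at -2.95, with cardiac transcription factors, endothelial, erythroid and endoderm markers also left of 0 and neural and pluripotency markers right of it.

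Genes whose pattern over the 6 arrays was most like the mean of the members were sought among 3445 genes with an SD of at least 0.5 on the log2 scale, by the root mean square gap between profiles centred over the arrays. The nearest 6 were Cd248 (gap 0.20), a pericyte and mesenchyme surface protein, Mef2c (0.25), a transcription factor of heart and muscle, the simple epithelial keratins Krt18 (0.25), Krt19 (0.26) and Krt8 (0.27), and the iron exporter Slc40a1 (0.26). Mef2c read 279 and 300 for A, 822 and 653 for B, and 96.0 and 49.3 for C. Among the members themselves the gap to their own mean was smallest for Myl4 (0.26), Ttn (0.35) and Tnnc1 (0.39) and widest for Tnni1 (1.81), Myh7 (1.20) and Myh6 (1.13). The mean profile of the members, as a log2 deviation, was 0.54 and 0.38 on the uninduced and induced arrays of A, 1.56 and 1.00 on those of B, and -1.51 and -1.97 on those of C.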

How the data were processed

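The deposited table holds, for each array, 1 intensity per probe set, which the submitters' processing notes call MAS5 output; its version is not given in the sources used here. Trimmed by 2% at both ends, every array had a mean of 500, and no normalization was added. The labels' protocols give 4.3 µg of total RNA per array and 1-cycle labelling. Gene names come from GEO's platform annotation, with symbols updated by Entrez ID through a RefSeq table: 34958 probe sets had 1 gene, 932 several and 9160 none.

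Signals were taken as log2(signal + 18.8). Probe sets other than 64 controls were tested if their mean log2 value reached the 40th percentile, equal to a signal of 54.3. Induction was fitted with limma 3.58.1 in R 4.3.3 on the group means, and experiments with terms for experiment and induction, using an intensity trend. Two-sided p-values were adjusted by Benjamini-Hochberg over 27022 probe sets, threshold 0.05. Ratios used an exact permutation test within experiments. The scripts were run on simulated data with 200 of 27022 probe sets changed. For log2 changes of 1, 2 and 3, the test of induction recovered 22%, 72% and 87.5% of them. The C against B test recovered 0%, 0% and 53.5%. The simulated induction data held no differences between experiments, unlike the arrays. The simulated C against B data held none beyond the 200, while on the arrays 1389 probe sets were lower and 1136 higher in C. With fewer changes the adjustment is stricter, so these shares do not carry over: on the arrays Fhod3 passed limma's test at 1.88 (adjusted p = 0.0034). A value that did not pass is still no sign of an equal level. Each file holds 1 value per probe set, so the number of arrays limits the precision.

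The labels name the same experiment for arrays of 1 letter, and departures from the group mean correlated at 0.44 to 0.67 between arrays of the same letter and -0.53 to -0.11 between others, so the letters were taken to pair the arrays. Named were all members, the partners Tnni3, Acta1 and Myl2, up to 3 genes of each other list with the smallest p over experiments (not all are printed), and the 6 genes nearest to the members' profile; Myod1, Myog and Hoxb4 were added after their values were seen. Members and lists were chosen with earlier results of these data known, so that no list is independent evidence. Alternatives were other offsets, filters, quantile normalization, no trend, no induction term, a replicate block and left-out arrays; a filter on the mean signal was chosen after seeing the data.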

Additional observations from a re-analysis of the deposited data

How the results depend on the processing

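In C against B and C against A, Tnni1, Tnnt2, Tnnc1, Myl4 and Myl7 passed under all 8 alternatives and without each of the 6 arrays. Every other call of a member that was lost or gained between experiments stands beside its gene. The experiment as a replicate block left 0 of 13 members called for induction and the mean at -0.394. That setting was fitted for induction only. Quantile normalization moved the median of all probe sets by at most 0.046. No alternative or left-out array called a member for induction. Causes of the shifts below were not tested. With 2 arrays an experiment and dim signals in C, the number of arrays and the offset set the precision, and a left-out array leaves its partner assumed to vary like the others.

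Mean over the members, C against B (-3.02): -3.56 with offset 1, -2.40 with offset 64, -3.64 with a filter at the 60th percentile, -3.12 after quantile normalization, -2.02 over all member probe sets, and -3.14 to -2.89 without each array. C against A (-2.20): -2.70 with offset 1, -1.65 with offset 64, -2.65 with the 60th percentile filter and -1.52 over all member probe sets. B against A (0.82): 0.49 over all member probe sets.

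Member probe sets called: C against B, 6 of 7 with the 60th percentile filter and 6 to 11 without each array. C against A, 5 of 7 with that filter. Member counts in this paragraph have no share over all probe sets beside them. The totals over all probe sets moved with the setting as well, so these counts do not set the members against the background. B against A, 1 with offset 1, 1 without a filter, 1 with the 60th percentile filter, 0 without the trend and 0 to 6 without each array. All probe sets called: C against B (2525), 1642 without the trend and 1009 to 8088 without each array. C against A (1778), 1089 without a filter, 205 without the trend and 263 to 9688 without each array. B against A (1053), 79 without the trend and 112 to 9242 without each array.

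Values that never passed changed sign. The mean for induction ran from -1.25 to 0.49 without each array. It was above 0 when the uninduced B array (0.29) or the induced C array (0.49) was left out. The fit for induction had no term for experiment, so 1 missing array let differences between experiments into its estimate. By gene, induction ran from -1.84 to 2.27 for Tnni1, -1.70 to 0.83 for Tnnt2, -1.45 to 0.65 for Tnnc1, -1.01 to 0.34 for Actc1, -0.80 to 0.14 for Myl3, -1.29 to 0.74 for Myl4, -1.97 to 0.84 for Myl7 and -0.88 to 0.66 for Ttn. Without both arrays of A it was -0.048 for Tnni1 and 0.028 for Myh6, and without both of C 0.11 for Ttn. Dropping a whole experiment keeps the induced and uninduced groups matched, and the mean for induction then stayed below 0. It was -0.51 with A dropped, -0.31 with B dropped and -0.36 with C dropped. Between experiments without each array, Myh6 ran from -1.43 to 0.14 (C against B), -1.14 to 0.44 (C against A) and -0.48 to 1.08 (B against A), Myh7 from -0.84 to 0.40, -1.05 to 0.19 and -0.63 to 0.21, and Myl3 from -0.26 to 0.67 in B against A.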
